A study of Saccharomyces cerevisiae with 12 samples.

Results

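The genes of trehalose synthesis and breakdown were followed through the exit of budding yeast (Saccharomyces cerevisiae) from quiescence. The set was the 9 genes TPS1, TPS2, TPS3, TSL1, NTH1, NTH2, ATH1, PGM2 and UGP1, taken by name from the 6120 genes of the deposited table. All 9 passed the filter on low values, a mean of at least 10 over the 12 libraries, which 5871 genes passed. Strain pJD47 was used throughout. Poly(A) RNA was sequenced from 4 groups with n = 3 libraries each. Quiescent cells (time point Q) had been moved from synthetic complete medium with glucose into water with 10 mM D3-acetate and kept there for 7 days. Cells in exit had had the same 7 days in acetate, were washed and put into liquid medium of unstated composition, and were collected after 30 min (E30) or 240 min (E240). The fourth group was in logarithmic growth (LOG). The labels state 3 biological replicates at each time point, numbered in the titles, without saying at which step they were split. P-values therefore measure the spread between libraries, which may in part be technical.

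Trehalose is a disaccharide of glucose that yeast stores in starvation and stress, where it also protects proteins and membranes. Its carbon comes from glucose-6-phosphate, which the phosphoglucomutase Pgm2 turns into glucose-1-phosphate and the pyrophosphorylase Ugp1 into UDP-glucose. Tps1 joins UDP-glucose and glucose-6-phosphate to trehalose-6-phosphate, Tps2 removes the phosphate, and Tps3 and Tsl1 are the regulatory subunits of the same complex. Trehalose is split by the neutral trehalase Nth1 and its paralog Nth2 in the cytosol and by the acid trehalase Ath1, which acts on trehalose outside the cell. Starved cells are known to spend their trehalose when glucose returns.

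Values are normalised read counts, in which the authors' size factor of each library is already divided out. Changes are log2 fold changes ± SE of log2(value + 1) with the adjusted p of limma over all 5871 genes, and a gene was called at an adjusted p under 0.05. Depth ran from 1195233 to 5220494 reads in quiescent libraries and from 7943459 to 15100323 in the others. The lowest read number behind a value of the 9 genes was 104, for TPS3 in quiescent replicate 1. The RNA of a cell was not measured in absolute terms, and each value is relative to the other RNA of its library. A gene that fell may thus have had fewer transcripts per cell, or other genes more. These cases and less RNA from these cells cannot be told apart.

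Markers of starvation and growth were measured in the same libraries. The summed level of 6 genes of the starved state (HSP12, HSP26, SPG1, SPG4, CTT1 and SSA3) spanned 102876 to 118814 across quiescent libraries. The sum was 45178 to 53581 over the 30 min libraries, and 240 min libraries held 3353 to 11533. In the first 30 min SPG1 and CTT1 fell and the other 4 did not pass. SPG4, whose quiescent values were 43690, 59951 and 68728 and 30 min values 5956, 12070 and 10962, made up most of the difference in the sum (log2 -2.61 ± 1.06, adjusted p = 0.0623). HSP12, HSP26 and SSA3 overlapped between those groups. All 6 were lower at 240 min than in quiescent cells. In log phase that sum was 3547 in replicate 1, 51018 in replicate 2 and 31165 in replicate 3. HSP12, a small membrane-protecting stress protein, stood at 1297, 38800 and 22735 there. Markers of growth on glucose (CDC19, ENO2, TDH3, HXT1 and RPL3) had sums of 52711 to 65505 over the quiescent and 30 min libraries, against 311962 to 472975 over the other 6. Sporulation genes (IME1, IME2, NDT80, SPO11, SPS4 and DIT1), which respond to acetate in diploid cells, had a quiescent sum of 3101 to 3388. Their 30 min sum was 1642 to 1769, their 240 min sum 1171 to 1189 and their log-phase sum 961 to 1083. Single genes differed, since DIT1, IME2 and NDT80 fell in the first 30 min, while IME1 was higher at 240 min (1.17 ± 0.30, adjusted p = 0.00540) and in log phase (0.97 ± 0.30, adjusted p = 0.0163) than in quiescent cells and SPS4 did not pass. No gene of these marker lists was at 0 in any library.

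Replicate 1 stood apart from replicates 2 and 3 over all genes tested, and in many of the trehalose genes after 240 min and in log phase. Its median absolute log2 deviation from the other libraries of its group, over all genes, was 0.39 in quiescent cells and 0.33 at 30 min. It was 0.39 at 240 min and 0.64 in log phase. For replicates 2 and 3 this deviation was 0.18 to 0.37 over the 4 groups. The median SD of the 9 genes' log2 values was 0.16 in quiescent cells and 0.17 at 30 min, but 0.77 at 240 min and 0.57 in log phase. Over all genes tested the median SD was 0.25, 0.21, 0.23 and 0.42 in the same order. Values of TPS1, TPS2, TPS3, TSL1, NTH1, PGM2 and UGP1 were higher at 240 min in replicate 1 than in the other two libraries, and all 9 were lowest in replicate 1 in log phase. The share of all genes with these orders was not counted. The starved-state sum was likewise lowest in log-phase replicate 1. At 240 min that sum was also lowest in replicate 1, where the trehalose genes named for 240 min were high and NTH2 and ATH1 lowest. CTT1 of the starved-state list was highest in that library (348, against 209 and 208). The part of these states in the results was not tested.

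The DNA before the start codon of each gene was searched for the core of the stress response element, CCCCT on either strand, to which the general stress factors Msn2 and Msn4 are known to bind. Within 600 bases upstream, TPS1 and PGM2 had 6 cores each, TPS2, TSL1 and UGP1 had 5 each, NTH1 had 3, TPS3 had 2, ATH1 had 1 and NTH2 had none. Of 6018 protein-coding genes with a window of that length, 39.6% held at least 1 core, 2.43% at least 3 and 0.332% at least 5. Some windows reach into the next gene. The neighbour of UGP1 begins 169 bases upstream and no core lay before it, while 5 cores of TPS1, 5 of PGM2, 5 of TPS2 and 3 of TSL1 lay before theirs. A total of 0.199% of all windows held at least 5 cores ahead of the neighbouring gene. A match describes letters in a window, not a bound site, and the search says nothing of either factor where no core was found.

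The stretches below are shown because they span the range from many cores to none, for a synthase, a phosphatase and a precursor gene (TPS1, TPS2, PGM2) and the 3 trehalase genes. A link between the number of cores and the change was not tested. TPS1, TPS2, TSL1, PGM2 and UGP1 had at least 5 cores in 600 bases, though UGP1 had none before its neighbour. From 30 min to log phase they changed by log2 2.14, 3.13, 1.28 (not called), 2.54 and 2.33. NTH1, with 3 cores, was not called (-0.20), and ATH1, with 1, and NTH2, with none, fell (-1.11 and -1.05). TPS3, with 2 cores, rose by 2.47. In the first 30 min TPS1, TPS2, TSL1, PGM2 and UGP1 changed by -2.47, -1.09 (not called), -1.98, -1.83 (not called) and -1.28. NTH1, TPS3, ATH1 and NTH2 changed by -0.64 (not called), -1.11, -1.51 and -0.99. Each stretch is 250 bases of the R64 reference, read 5′ to 3′ on the strand of the gene, with the cores in capitals. The first core printed for TPS1, at 472 bases before the start codon, lies beyond the edge of the neighbouring gene at 457 bases. The stretches lie at chrII:490615-490864 (TPS1, minus strand), chrIV:593370-593619 (TPS2, plus strand), chrXIII:477763-478012 (PGM2, minus strand), chrIV:452576-452825 (NTH1, minus strand), chrXVI:615029-615278 (ATH1, plus strand) and chrII:241384-241633 (NTH2, minus strand).
TPS1: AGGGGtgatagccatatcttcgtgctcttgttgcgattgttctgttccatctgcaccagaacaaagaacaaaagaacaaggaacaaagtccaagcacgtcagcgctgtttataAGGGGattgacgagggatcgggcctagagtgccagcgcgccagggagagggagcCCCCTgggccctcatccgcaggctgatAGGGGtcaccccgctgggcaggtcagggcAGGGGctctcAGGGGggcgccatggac
TPS2: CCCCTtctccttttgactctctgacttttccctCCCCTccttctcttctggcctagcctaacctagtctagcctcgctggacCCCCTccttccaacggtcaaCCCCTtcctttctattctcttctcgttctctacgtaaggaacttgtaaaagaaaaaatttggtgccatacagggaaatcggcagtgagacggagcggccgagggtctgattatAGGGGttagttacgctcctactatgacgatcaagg
PGM2: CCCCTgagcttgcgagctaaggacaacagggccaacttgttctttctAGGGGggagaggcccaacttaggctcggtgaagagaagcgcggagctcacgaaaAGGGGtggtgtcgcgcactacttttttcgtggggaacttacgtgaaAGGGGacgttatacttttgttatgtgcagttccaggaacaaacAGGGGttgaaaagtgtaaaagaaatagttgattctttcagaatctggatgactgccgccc
NTH1: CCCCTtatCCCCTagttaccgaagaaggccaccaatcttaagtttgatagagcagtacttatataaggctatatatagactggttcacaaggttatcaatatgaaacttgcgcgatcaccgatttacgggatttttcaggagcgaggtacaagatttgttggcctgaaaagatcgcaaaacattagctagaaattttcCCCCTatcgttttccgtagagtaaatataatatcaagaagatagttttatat
ATH1: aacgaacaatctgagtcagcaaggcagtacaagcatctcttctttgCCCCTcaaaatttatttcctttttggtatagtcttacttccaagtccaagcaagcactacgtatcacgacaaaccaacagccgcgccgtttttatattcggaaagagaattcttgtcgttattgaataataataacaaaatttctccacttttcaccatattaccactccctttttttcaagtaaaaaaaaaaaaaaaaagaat
NTH2: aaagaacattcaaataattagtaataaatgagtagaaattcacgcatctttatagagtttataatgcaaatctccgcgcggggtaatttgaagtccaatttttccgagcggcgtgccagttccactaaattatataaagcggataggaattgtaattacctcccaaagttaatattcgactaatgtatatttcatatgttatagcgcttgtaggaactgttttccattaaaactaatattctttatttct

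**Figure D1:**
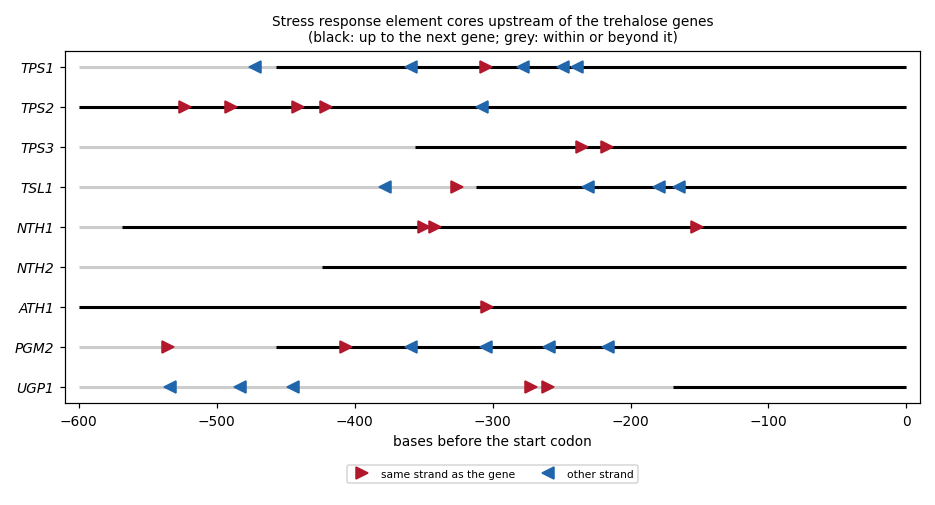
Positions of the stress response element core before the start codon of each of the 9 genes, in bases, with red triangles for cores on the strand of the gene and blue triangles for cores on the other strand. Black lines run to the next gene upstream; TPS1 and PGM2 carry 6 cores each, and the line of NTH2 has none.

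Across the first 30 min, 6 of the 9 genes fell, none rose and 3 did not pass the test, against 23.7% of all genes tested that fell and 20.6% that rose. The median log2 change was -1.28, beside -0.07 over all genes. In all 9 genes the 3 libraries at 30 min lay below the 3 quiescent libraries, which 33.4% of all genes did. From 30 min to 240 min, 2 rose (TPS3 and UGP1), 1 fell (NTH2) and 6 did not pass, while 13.3% of all genes rose and 14% fell, 27.3% in all. From 240 min to log phase, 3 rose (TPS1, PGM2 and UGP1) and 6 did not pass, against 3.27% of all genes that rose and 4.09% that fell, 7.36% in all. That count depended on single libraries, as did the count over all 5871 genes, given in brackets. It was 6 without log-phase replicate 1 (2076), 5 without 240 min replicate 1 (509) and 5 with the replicate number as a block (1066). It was 1 when quiescent replicate 3 or either of 30 min replicates 2 and 3 was left out (209 to 220). It was 0 without 240 min replicate 2 or 3 or log-phase replicate 2 or 3 (48 to 161). Fitted on those 2 groups alone it was also 0, with 19 genes called over the whole table. The count from 30 min to 240 min went from 3 to 5 without log-phase replicate 1, and that over all genes from 1602 to 2278. For the first 30 min all 9 genes fell without log-phase replicate 1, and 4 without 30 min replicate 1. Over all genes 1721 and 1158 fell in those settings, beside 1394 in the main analysis.

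Later groups were also compared with quiescent cells. At 240 min 6 of the 9 were below their quiescent level and none above it, against 29.5% of all genes below and 29.1% above. In log phase 3 genes (TPS2, TPS3 and UGP1) were above the quiescent level, against 28.8% of all genes, and the 3 trehalases were below it, against 27.8%. Both counts, 3 of 9, are near those shares. TPS1, TSL1 and PGM2 did not pass in that comparison (adjusted p = 0.295 to 0.497 by limma). Between 30 min and log phase TPS1, TPS2, TPS3, PGM2 and UGP1 rose, against 20.6% of all genes, and NTH2 and ATH1 fell, against 22.1%. By mean log2 value, 4 genes were lowest at 30 min and 5 at 240 min, while 5 were highest in quiescent cells and 4 in log phase. Over all genes tested, 21.3% were lowest at 30 min and 18.9% at 240 min, and 36% were highest in quiescent cells and 25.5% in log phase. These 6 comparisons share groups, so their results are not independent of each other.

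**Figure D2:**
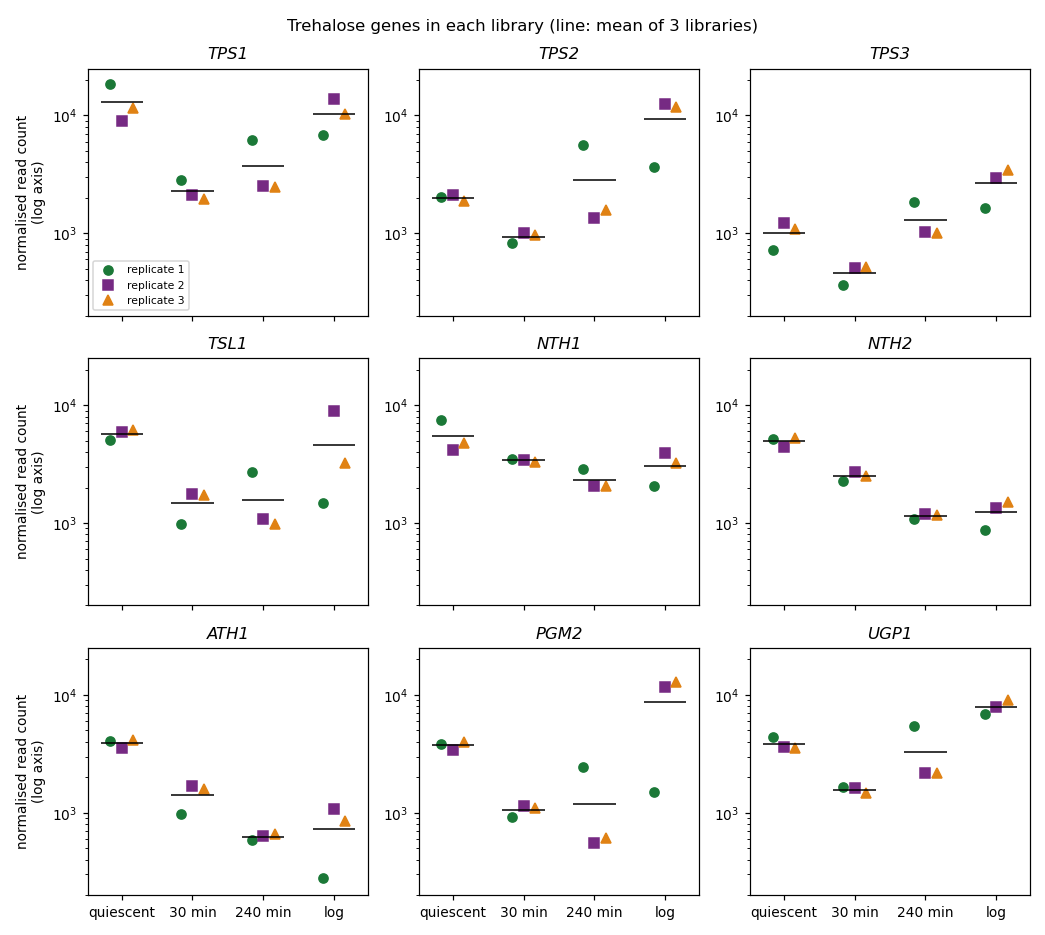
Normalised read count (log axis) of each of the 9 genes in the 4 groups, with 1 point per library, its replicate number by colour and shape, and a line at the mean of the 3 libraries. All genes sit lower at 30 min than in quiescent cells, NTH2 and ATH1 stay low in log phase, and replicate 1 stands apart at 240 min and in log phase for PGM2 and TPS2.

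TPS1 encodes the synthase itself (YBR126C, chromosome II, 488905 to 490392, minus strand). Its normalised read counts were 18592, 9063 and 11662 in quiescent replicates 1, 2 and 3, and 2813, 2095 and 1947 at 30 min. At 240 min they were 6252, 2518 and 2459, and in log phase 6860, 13883 and 10363. The log-phase libraries overlapped the quiescent ones and lay above all libraries of both exit times. TPS1 fell in the first 30 min (log2 -2.47 ± 0.40, adjusted p = 0.000477), a call kept under all 20 other settings tried. It was 5.55-fold lower at 30 min and did not differ beyond the spread between 30 min and 240 min (0.58 ± 0.40, adjusted p = 0.310). From 240 min to log phase it rose by 1.56 ± 0.40 (adjusted p = 0.0381). That call was lost without any of 240 min replicates 2 and 3, log-phase replicates 2 and 3, quiescent replicate 3 and 30 min replicates 2 and 3 (adjusted p = 0.0592 to 0.180). Log phase and quiescence did not pass as different (-0.33 ± 0.40, adjusted p = 0.497).

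TPS2, the trehalose-6-phosphate phosphatase gene (YDR074W, chromosome IV, 593893 to 596583, plus strand), had an order of levels unlike that of TPS1. It stood at 2022, 2110 and 1866 in quiescent replicates 1 to 3, and at 833, 1016 and 964 after 30 min. At 240 min the values were 5595, 1360 and 1565, and in log phase 3675, 12495 and 11897. Every log-phase library was above every quiescent one, and TPS2 was higher in log phase than in quiescent cells (2.03 ± 0.52, adjusted p = 0.00535). The difference at 30 min was -1.09 ± 0.52 and was not called (adjusted p = 0.107), although the groups did not overlap. It was called without 240 min replicate 1 (adjusted p = 0.0382) or log-phase replicate 1 (adjusted p = 0.0370), and when only those 2 groups were fitted (adjusted p = 0.000696). From 30 min to log phase TPS2 rose by 3.13 ± 0.52 (adjusted p = 0.000529), or 8.74-fold. From 240 min to log phase the value was 1.84 ± 0.52 (adjusted p = 0.0523). With the replicate block that step was called (adjusted p = 0.0454), as it was without 240 min replicate 1 (adjusted p = 0.00855) or log-phase replicate 1 (adjusted p = 0.00194). The step before, from 30 min to 240 min, was 1.29 ± 0.52 (adjusted p = 0.0870), and was called without log-phase replicate 1 (adjusted p = 0.0248) and by edgeR (adjusted p = 0.0420).

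The regulatory subunit genes TSL1 (YML100W, chromosome XIII, 70624 to 73920, plus strand) and TPS3 (YMR261C, chromosome XIII, 790205 to 793369, minus strand) moved differently. TSL1 stood at 5049, 5959 and 6176 in quiescent cells and at 991, 1761 and 1728 at 30 min. Its later values were 2688, 1078 and 975 at 240 min and 1469, 8968 and 3261 in log phase, where replicate 2 was above the quiescent libraries and the other two below them. TSL1 fell in the first 30 min (-1.98 ± 0.55, adjusted p = 0.0118, and 0.0505 without 30 min replicate 1). It was also lower at 240 min than in quiescent cells (-2.01 ± 0.55, adjusted p = 0.00758). Log phase did not pass against any other group (adjusted p = 0.0809 to 0.295). By edgeR (adjusted p = 0.0353) and DESeq2 (0.00810) TSL1 was higher in log phase than at 30 min. By DESeq2 it was also higher than at 240 min (adjusted p = 0.0347). Without log-phase replicate 1, log phase passed against 240 min (adjusted p = 0.00851) and 30 min (adjusted p = 0.00510) by limma. Without log-phase replicate 2 it passed as lower than quiescent cells (adjusted p = 0.0253).

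TPS3 stood at 725, 1226 and 1091 in quiescent cells, 368, 506 and 515 at 30 min, 1842, 1031 and 1005 at 240 min and 1626, 2969 and 3417 in log phase. It was lowest at 30 min and highest in log phase, with no overlap between either group and the quiescent libraries. TPS3 fell in the first 30 min (-1.11 ± 0.33, adjusted p = 0.0158). Leaving out quiescent replicate 2 (adjusted p = 0.0627), leaving out quiescent replicate 3 (0.0530), leaving out 30 min replicate 1 (0.0618) and total-count scaling (0.0509) each ended this call. It then rose by 1.44 ± 0.33 to 240 min (adjusted p = 0.00712) and was 1.36 ± 0.33 higher in log phase than in quiescent cells (adjusted p = 0.00363), both called under all 20 other settings. The step from 240 min to log phase (1.04 ± 0.33, adjusted p = 0.0784) was called with the replicate block (adjusted p = 0.0471), without 240 min replicate 1 (adjusted p = 0.0337) and without log-phase replicate 1 (adjusted p = 0.00471).

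PGM2, the major phosphoglucomutase gene (YMR105C, chromosome XIII, 475897 to 477606, minus strand), went from 552 in its lowest library to 12813 in its highest. Quiescent libraries held 3856, 3406 and 4011, and libraries at 30 min 918, 1143 and 1104. At 240 min PGM2 stood at 2436 in replicate 1 and at 552 and 608 in replicates 2 and 3. In log phase it stood at 1509 in replicate 1 and at 11692 and 12813 in the other two. Replicate 1 was thus high where the others were low and low where they were high. Its difference at 30 min was -1.83 ± 0.72 (adjusted p = 0.0545). Leaving out log-phase replicate 1 (adjusted p = 0.00346), 240 min replicate 1 (0.0350) or either other log-phase library brought the call, as did edgeR (0.0465) and a fit of the 2 groups alone (0.000135). At 240 min PGM2 was lower than in quiescent cells (-2.00 ± 0.72, adjusted p = 0.0292). Leaving out any quiescent library or 240 min replicate 2 or 3 ended this call (adjusted p = 0.0559 to 0.108), as did edgeR (adjusted p = 0.0559), and without 240 min replicate 1 the change was -2.69. From 240 min to log phase it rose by 2.70 ± 0.72 (adjusted p = 0.0426), by 3.71 without log-phase replicate 1 and by 3.39 without 240 min replicate 1. Leaving out any other library ended that call (adjusted p = 0.0538 to 0.180). Between 30 min and log phase PGM2 rose by 2.54 ± 0.72 (adjusted p = 0.0132), by 3.54 without log-phase replicate 1, and was not called without log-phase replicate 2 (adjusted p = 0.0579) or 3 (adjusted p = 0.0618). Log phase and quiescence did not pass as different (0.70 ± 0.72, adjusted p = 0.420), but did without log-phase replicate 1 (1.71, adjusted p = 0.00870).

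UGP1, which encodes UDP-glucose pyrophosphorylase (YKL035W, chromosome XI, 369891 to 371390, plus strand), had closer replicates in log phase. The quiescent values were 4359, 3585 and 3527, those at 30 min 1645, 1608 and 1460, those at 240 min 5453, 2183 and 2160, and those in log phase 6929, 7889 and 9008. All 3 log-phase libraries lay above all 9 others. UGP1 fell in the first 30 min (-1.28 ± 0.31, adjusted p = 0.00560) and from 30 min to log phase rose by 2.33 ± 0.31 (adjusted p = 0.000118), both called under all 20 other settings. Its rise between 30 min and 240 min was at the edge of the threshold (0.91 ± 0.31, adjusted p = 0.0469). That rise was not called without any one of 9 libraries, all but 240 min replicates 2 and 3 and log-phase replicate 1 (adjusted p = 0.0516 to 0.129). Without 240 min replicate 1 it was 0.47, and with total-count scaling 0.46 (adjusted p = 0.272). The rise from 240 min to log phase (1.42 ± 0.31, adjusted p = 0.0228) was not called without 240 min replicate 2 or 3 or log-phase replicate 2 or 3 (adjusted p = 0.0675 to 0.129). Log phase was above quiescence (1.05 ± 0.31, adjusted p = 0.0121), a call lost with total-count scaling (0.58, adjusted p = 0.137). At 240 min UGP1 did not differ from quiescent cells beyond the spread (-0.37 ± 0.31, adjusted p = 0.330), but was lower without 240 min replicate 1 (-0.81, adjusted p = 0.00557).

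**Figure D3:**
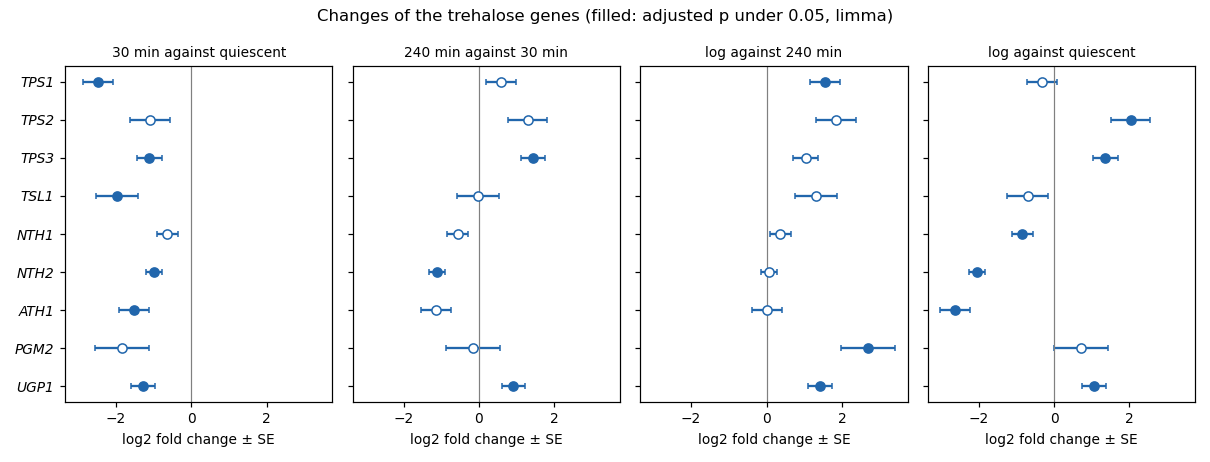
Log2 fold change ± SE of each gene in 4 comparisons, with filled points for an adjusted p under 0.05 by limma. All points of the first panel lie below 0, and in the last panel TPS2, TPS3 and UGP1 are above 0 and the 3 trehalases below it.

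On the side of breakdown, NTH1 encodes the main neutral trehalase (YDR001C, chromosome IV, 450220 to 452475, minus strand). Its values were 7546, 4178 and 4745 in quiescent cells and 3515, 3424 and 3306 at 30 min. They were 2866, 2074 and 2061 at 240 min and 2056, 3906 and 3250 in log phase. NTH1 thus covered a narrower range than TPS1, and its libraries at 30 min lay close together below the quiescent ones. The difference at 30 min, -0.64 ± 0.28, was not called (adjusted p = 0.0852), but was without log-phase replicate 1 (adjusted p = 0.0310) and by DESeq2 (adjusted p = 0.0444). NTH1 was lower at 240 min than in quiescence (-1.20 ± 0.28, adjusted p = 0.00290) under all settings. It was lower in log phase as well (-0.84 ± 0.28, adjusted p = 0.0232), a call lost without quiescent replicate 1 (adjusted p = 0.0969) or log-phase replicate 1 (adjusted p = 0.0652) and with those 2 groups fitted alone (adjusted p = 0.0848). Differences among the 30 min, 240 min and log-phase levels were not called by limma (adjusted p = 0.161 to 0.589). All 240 min libraries nevertheless lay below all 30 min libraries. Some settings called differences among these 3 groups. NTH1 was lower at 240 min than at 30 min with total-count scaling (adjusted p = 0.00846), with those 2 groups fitted alone (0.0348) and with replicates 2 and 3 alone (0.000514). It was lower in log phase than at 30 min with total-count scaling (adjusted p = 0.00849), and higher in log phase than at 240 min with replicates 2 and 3 alone (0.79, adjusted p = 0.000260).

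NTH2, the paralog of NTH1 (YBR001C, chromosome II, 238941 to 241283, minus strand), held closest to 1 pattern in all replicates. Its values were 5209, 4447 and 5281 in quiescent cells, 2290, 2704 and 2522 at 30 min, 1088, 1184 and 1176 at 240 min and 881, 1331 and 1506 in log phase. Each of the first 3 groups lay wholly below the one before. NTH2 fell in the first 30 min (-0.99 ± 0.21, adjusted p = 0.00260) and again to 240 min (-1.12 ± 0.21, adjusted p = 0.00222). It was 4.32-fold lower at 240 min than in quiescent cells (-2.11 ± 0.21, adjusted p = 6.32e-06) and 4.10-fold lower in log phase (-2.04 ± 0.21, adjusted p = 7.44e-06). These 4 calls held under all 20 other settings, and 240 min and log phase did not differ beyond the spread (0.07 ± 0.21, adjusted p = 0.853).

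ATH1, the acid trehalase gene (YPR026W, chromosome XVI, 615379 to 619014, plus strand), followed the same order. It stood at 4073, 3568 and 4173 in quiescent cells, 971, 1681 and 1588 at 30 min, 585, 638 and 658 at 240 min and 280, 1073 and 848 in log phase. The log-phase libraries spread on both sides of those at 240 min. ATH1 fell in the first 30 min (-1.51 ± 0.40, adjusted p = 0.00872). It was 6.27-fold lower at 240 min (-2.65 ± 0.40, adjusted p = 0.000130) and 6.19-fold lower in log phase (-2.63 ± 0.40, adjusted p = 0.000143) than in quiescent cells. Without log-phase replicate 1 the log-phase change was -2.04 and was still called. The step from 30 min to 240 min (-1.13 ± 0.40, adjusted p = 0.0527) was called with the replicate block (adjusted p = 0.0196), without 30 min replicate 1 (adjusted p = 0.0437), without log-phase replicate 1 (adjusted p = 0.00123) or without log-phase replicate 2 (adjusted p = 0.0334). That from 30 min to log phase (-1.11 ± 0.40, adjusted p = 0.0400) was lost without any one of the libraries except 30 min replicate 1 and log-phase replicates 2 and 3 (adjusted p = 0.0505 to 0.125), with a value of -0.53 without log-phase replicate 1, and by edgeR (adjusted p = 0.0616).

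The change was also read between libraries of the same replicate number. From quiescence to 30 min all 27 such differences of the 9 genes were below 0. This follows from the lack of overlap between those groups in all 9 genes and adds nothing to it. TPS1 changed by -2.72, -2.11 and -2.58 in replicates 1, 2 and 3, and NTH1 by -1.10, -0.29 and -0.52. From 240 min to log phase the replicates went apart. TPS2 changed by -0.61 in replicate 1, 3.20 in replicate 2 and 2.93 in replicate 3, and PGM2 by -0.69, 4.40 and 4.40. For 7 of the 9 genes replicate 1 was below 0 and the other two above it in that step, and TPS1 and UGP1 were above 0 in all 3. With replicates 2 and 3 alone, 8 of the 9 genes rose in that step, as did 1872 of all 5871 genes.

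**Figure D4:**
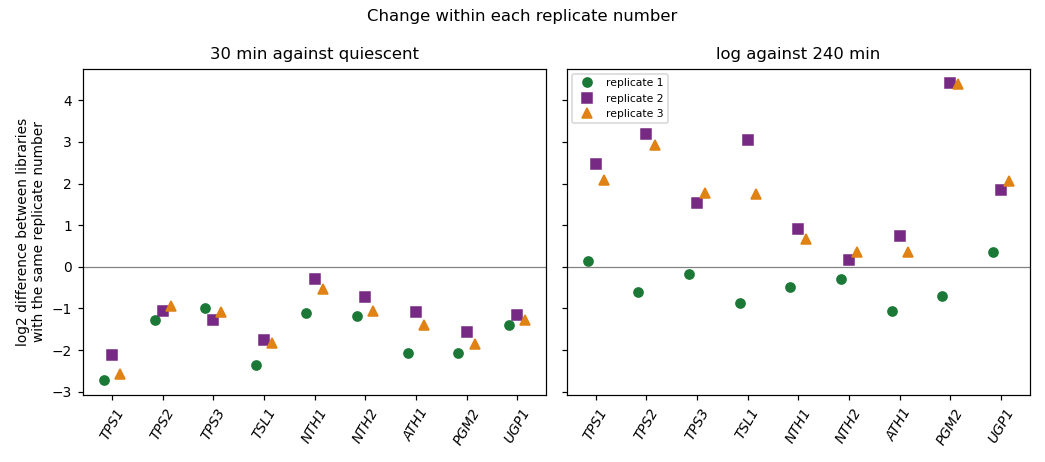
Log2 difference between libraries of the same replicate number for each gene, for 30 min against quiescent cells on the left and log phase against 240 min on the right. All points on the left are below 0; on the right replicates 2 and 3 are above 0, with PGM2 at 4.40 in both, and replicate 1 lies near or below 0.

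Ratios of gene pairs within a library do not depend on how libraries were scaled. The 4 ratios were compared between the 4 groups with an exact permutation test of the F statistic over all 369600 assignments of the 12 libraries, with adjustment over the 4 ratios. The smallest p this test can give is 6.49e-05. NTH1 to TPS1 differed between groups (adjusted p = 0.000519, exact permutation test). It was 0.406, 0.461 and 0.407 in quiescent replicates 1 to 3, 1.25, 1.63 and 1.70 at 30 min, 0.458, 0.824 and 0.838 at 240 min and 0.300, 0.281 and 0.314 in log phase. The ratio was higher in all 3 libraries at 30 min than in the other 9. Counts were not corrected for gene length, so a ratio of 1 does not mark equal levels. Per kb of coding length at 30 min, TPS1 and NTH1 stood at 1890 and 1558 in replicate 1. They stood at 1408 and 1518 in replicate 2 and at 1308 and 1465 in replicate 3.

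Both trehalase paralogs did not move by 1 common factor. NTH1 to NTH2 stood at 1.45, 0.940 and 0.898 in quiescent cells, 1.54, 1.27 and 1.31 at 30 min, 2.63, 1.75 and 1.75 at 240 min and 2.33, 2.94 and 2.16 in log phase. The mean log2 ratio was lowest in quiescent cells, at 0.10, and highest in log phase, at 1.29 (adjusted p = 0.00571, exact permutation test). TSL1 to TPS3 went the other way, from 6.96, 4.86 and 5.66 in quiescent cells to 2.69, 3.48 and 3.36 at 30 min and 1.46, 1.05 and 0.970 at 240 min (adjusted p = 0.00571, exact permutation test). In log phase it was 0.903, 3.02 and 0.954, so that replicate 2 stood apart. PGM2 to PGM1, its minor isozyme, did not pass (adjusted p = 0.0973, exact permutation test), with log-phase ratios of 0.714 in replicate 1 and 7.87 and 5.92 in the others. Without log-phase replicate 1 it passed (adjusted p = 0.00247, exact permutation test). The coding sequences of NTH1 and NTH2 are identical at 72.3% of aligned bases, those of PGM2 and PGM1 at 72.8% and those of TSL1 and TPS3 at 65.9%. No run of 75 bases, the read length, is shared within any of these pairs, the longest shared run being 33 bases, and none of the 9 genes overlaps another annotated gene.

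**Figure D5:**
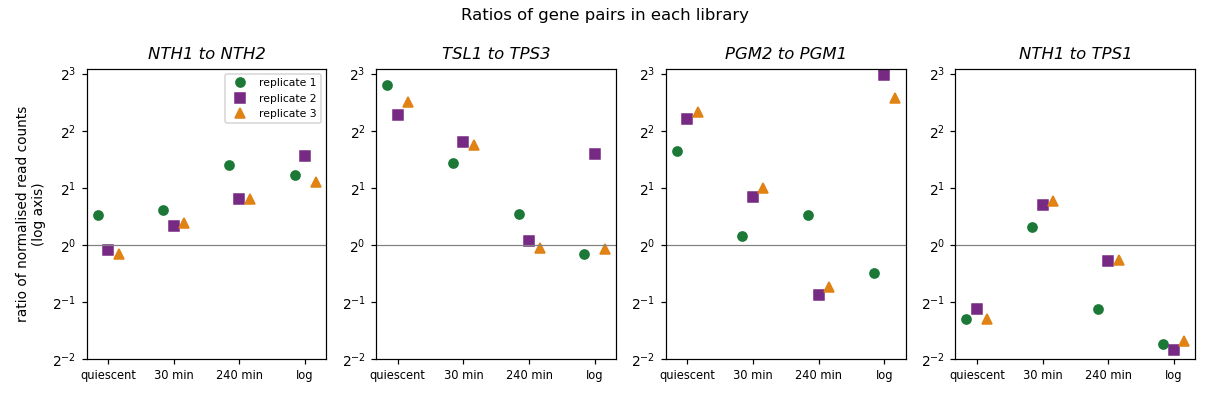
Ratio of the normalised read counts of 4 gene pairs in each library (log axis), with 1 point per library and the replicate number by colour and shape. NTH1 to TPS1 is higher in the 3 libraries at 30 min than in the other groups, and TSL1 to TPS3 steps down from quiescent cells to 240 min. The counts are not corrected for gene length.

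Levels were compared between genes per kilobase of coding length. In quiescent cells TPS1 had 8807 ± 3310 units per kb (SD, n = 3), above UGP1 (2549 ± 309), NTH1 (2433 ± 799), PGM2 (2198 ± 184), NTH2 (2125 ± 197), TSL1 (1737 ± 181), ATH1 (1083 ± 89.2), TPS2 (743 ± 45.9) and TPS3 (320 ± 81.9). Among 5776 protein-coding genes TPS1 ranked between 77 and 229 in the quiescent libraries and between 815 and 1184 at 30 min. By log phase TPS1 (6968 ± 2360), UGP1 (5295 ± 694), PGM2 (5071 ± 3642) and TPS2 (3477 ± 1832) led, and ATH1 was at 202 ± 112. Shares of the synthase complex genes at the RNA level were also computed. TPS1 made up 83.3%, 67.2% and 72.9% of the summed level per kb of TPS1, TPS2, TPS3 and TSL1 in quiescent libraries. Its share was 72.2%, 56.8% and 55.6% at 30 min, 54.7%, 59.4% and 58.0% at 240 min and 66.5%, 52.9% and 51.8% in log phase. The 30 min shares of TPS1 overlapped both the quiescent and the log-phase ones. The share of TPS2 was 5.01%, 8.64% and 6.45% in quiescent cells, 11.8%, 15.2% and 15.2% at 30 min, 27.1%, 17.7% and 20.4% at 240 min and 19.7%, 26.3% and 32.9% in log phase. All log-phase and 240 min shares of TPS2 lay above all quiescent and 30 min ones. These shares are given as a description, with no test.

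Likeness of pattern was described by Pearson's r of log2 values over the 12 libraries, which share group differences and the offset of replicate 1. Among the 36 pairs of the 9 genes it was highest for NTH2 and ATH1 (0.97), TPS2 and TPS3 (0.95) and TPS2 and UGP1 (0.94), and lowest for TPS3 and NTH2 (-0.44). Deviations from the group means gave 0.90 for NTH2 and ATH1 and 0.96 for TPS2 and PGM2. Among 5622 other genes with a mean of at least 50, those most like TPS1 were BCY1, which encodes the regulatory subunit of protein kinase A (0.98), NAB6 (0.97) and SFH1, a subunit of the RSC chromatin remodeler (0.97). Most like NTH1 were the kinase gene PKH1 (0.98), the mitochondrial outer membrane gene OM45 (0.96) and the peroxiredoxin gene TSA2 (0.96). Most like ATH1 were the transporter gene PDR10, FAT3 and the glycogen-degrading glucoamylase gene SGA1 (all 0.99).

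Glycogen is the other storage sugar made from UDP-glucose. Of its 8 genes 7 fell in the first 30 min and 1 did not pass, with a median log2 change of -1.96, against 23.7% of all genes that fell and a median of -0.07 over all genes. The glycogen synthase gene GSY2 changed by -2.15 ± 0.57 (adjusted p = 0.00861), the phosphorylase gene GPH1 by -1.93 ± 0.67 (adjusted p = 0.0341) and SGA1 by -2.45 ± 0.52 (adjusted p = 0.00265). In the next step SGA1 fell and the other 7 did not pass. Between 240 min and log phase GSY2 rose (2.51 ± 0.57, adjusted p = 0.0247) and the other 7 did not pass. GSY2 in log phase was 2902 in replicate 1 and 8781 and 10515 in replicates 2 and 3, with 3147, 651 and 707 at 240 min. Its replicate 1 was on the same sides as that of PGM2.

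Of 6 genes that supply sugar phosphates, 2 rose, 1 fell and 3 did not pass in the first 30 min, against 20.6% of all genes that rose and 23.7% that fell. HXK2, the hexokinase gene of growth on glucose, rose by 1.07 ± 0.18 (adjusted p = 0.000704) and PGI1, phosphoglucose isomerase, by 0.95 ± 0.22 (adjusted p = 0.00426). GLK1, a glucokinase gene, fell by 2.60 ± 0.49 (adjusted p = 0.00126). Between 30 min and 240 min HXK2, PGI1 and PGM1 rose and the other 3 did not pass, with 13.3% of all genes rising. HXK1 went from 6139, 661 and 832 at 240 min to 3363, 18418 and 21182 in log phase (2.87 ± 0.80, adjusted p = 0.0503), with replicate 1 apart from the others in both groups.

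Among 13 regulators of these enzymes or their genes, 6 fell, 1 rose and 6 did not pass in the first 30 min, beside the same shares of all genes. Protein kinase A, which activates Nth1 and holds stress genes down, is built from catalytic subunits, Tpk2 and Tpk3 among them, and the inhibitory subunit Bcy1. BCY1 (-1.80 ± 0.26, adjusted p = 0.000219) and TPK2 (-1.71 ± 0.34, adjusted p = 0.00172) fell, while TPK3 rose (0.91 ± 0.21, adjusted p = 0.00417). DCS1, reported as an inhibitor of Nth1 (-1.17 ± 0.25, adjusted p = 0.00264), and its paralog DCS2 (-2.08 ± 0.36, adjusted p = 0.000727) fell too. The genes of the phosphoprotein-binding activators of Nth1, BMH1 (1.10 ± 0.25, adjusted p = 0.00741) and BMH2 (1.04 ± 0.19, adjusted p = 0.00168), rose from 30 min to 240 min. The stress factor gene MSN4 rose from 240 min to log phase (2.34 ± 0.47, adjusted p = 0.0161), from 962, 232 and 277 to 2034, 1738 and 2279, and MSN2 was not called in any of the 3 successive steps (adjusted p = 0.221 to 0.877).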

How the data were processed

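Each value in the authors' deposited table is a read count divided by a size factor of its library, a non-negative signal with no correction for gene length. The submitters' processing notes list STAR 2.5.2a, HTSeq 0.6.1, bedtools, DESeq2 and DESeq, and the sacCer3 build, without their roles. Whether counting used strand was not stated. All values were whole multiples of what 1 read was worth (tolerance 1e-06), 6.97 units in quiescent replicate 1 and 0.554 to 1.70 in the others, so reads were recovered. The test was limma 3.58.1 under R 4.3.3, with a trend of variance on mean level, on log2(value + 1) for 5871 genes. A single model held the 4 groups (8 residual degrees of freedom), and two-sided p-values were adjusted by Benjamini-Hochberg within each of 6 comparisons. Log fold changes understate the change of low genes. Alternatives were edgeR 4.0.16 and DESeq2 1.42.0 on the recovered reads, another pseudocount (10), no filter, total-count scaling, a replicate block, 2-group fits and left-out libraries. The code was tested on simulated data. No 2 libraries of a group were alike within sampling noise. Replicate numbers come from the titles. Deviations from group means correlated in all 18 same-numbered pairs (0.134 to 0.582). Replicate 2 of 1 group also correlated with replicate 3 of another (0.210 to 0.553). Replicate 1 correlated negatively with replicates 2 and 3 of other groups (-0.604 to -0.197). These values therefore do not settle whether the numbers pair libraries, and the main model held no block. Differences by replicate number are a description. Genes were located in the NCBI R64 reference, the assembly behind sacCer3. The 9 genes are always named. They, the other lists and the rules for naming were chosen with earlier results of these data known. A gene of the growth marker list and a gene of the regulator list are not reported here and are in no sum or count of those lists.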

Additional observations from a re-analysis of the deposited data

How the results depend on the processing

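Of the values of the 9 genes in 6 comparisons under 20 alternatives, 937 kept direction and side of the threshold, 63 lost a call, 57 gained one and 23 turned sign. The cause was not tested. Genes called over the whole table from 240 min to log phase numbered 432, but 802 with total-count scaling (112 higher, 690 lower), 925 by DESeq2, 1066 with the replicate block, 19 with those 2 groups alone, 3673 with replicates 2 and 3 alone (1872 higher, 1801 lower) and 48 to 2076 with 1 library left out. With replicates 2 and 3 alone the whole table gave 4194 calls for the first 30 min, 3559 from 30 min to 240 min (1011 to 2278 with 1 library left out) and 4369 from 30 min to log phase. From 30 min to 240 min edgeR called 5 of the 9 genes (1685 over the whole table) and DESeq2 called 5 (1975). In that step 7 of the 9 were called with replicates 2 and 3 alone and 2 to 5 with 1 library left out. Between 240 min and log phase 6 of the 9 genes were called by DESeq2, 5 with the replicate block and 0 with the 2 groups alone. With replicates 2 and 3 alone 8 were called, and 0 to 6 with 1 library left out. The range of the PGM2 to PGM1 ratio was 3.57 with replicates 2 and 3 alone and 2.17 to 3.13 with 1 library left out. The replicate block changed 3 calls, ATH1 from 30 min to 240 min and TPS2 and TPS3 from 240 min to log phase, and no other call of the 9 genes.

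Sign changes were as follows (log2). Between 30 min and 240 min TSL1 was 0.087 by edgeR, 0.079 by DESeq2 and -0.49 to 0.24 with 1 library left out, and PGM2 was 0.19, 0.18 and -0.86 to 0.21. Between 240 min and log phase NTH2 was -0.20 with total-count scaling and -0.084 to 0.30 with 1 library left out, and ATH1 was -0.25 and -0.36 to 0.61. From quiescence to 240 min TPS2 was -0.0030 with total-count scaling, -0.44 with replicates 2 and 3 alone (adjusted p = 0.00355 by limma) and -0.45 to 0.57 with 1 library left out, and TPS3 was -0.18 with replicates 2 and 3 alone. With those replicates TPS1 was 0.22 in log phase against quiescence and NTH1 0.083 against 30 min, the latter -0.40 to 0.062 with 1 library left out. With total-count scaling the median log2 change of all genes was 0.18 in the first 30 min (-0.07 in the main analysis), -0.46 from 30 min to 240 min (-0.012) and -0.28 from 240 min to log phase (-0.0087). Quiescent replicate 1 had the fewest reads, so its values carry the most counting error.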

Other observations

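Other genes that use UDP-glucose were split in direction. Of 8, 3 rose, 4 fell and 1 did not pass in the first 30 min, against 20.6% of all genes that rose and 23.7% that fell. FKS1, which encodes the glucan synthase subunit of growing cells, rose (1.12 ± 0.23, adjusted p = 0.00214), from 1834, 2792 and 2421 in quiescent replicates 1, 2 and 3 to 4065, 5149 and 6125 at 30 min. GSC2, its paralog known from sporulation and stress, fell (-1.56 ± 0.28, adjusted p = 0.000946), from 10293, 9411 and 9530 to 2351, 3883 and 3919. In neither gene did the libraries of the 2 groups overlap. ALG5, which makes dolichol-linked glucose for protein glycosylation, rose by 1.25 ± 0.25 (adjusted p = 0.00199). From 30 min to 240 min FKS1 rose again (0.81 ± 0.23, adjusted p = 0.0224), FKS3 and ATG26 fell and the other 5 did not pass.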
